A study of Mus musculus with 12 samples.

Results

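Of the 26699 gene symbols counted in the sorted macrophages of mouse synovium, 5 are described here, *Selp*, *Nup210*, *Bach2*, *Irag2* and *Slc17a8*. They were chosen by their fold difference in the CD11c libraries, where each was much lower with CGRP than without it, so their values in that subset are given as a description and without a test. The comparison that the choice did not use is the one in the other sorted subset, and whether the genes were lower there too is the question that could be tested. Synovium, the lining tissue of joints, was dissected from wild-type mice (C57BL/6 in the labels, a C57BL/6J background in the methods), and the explants were held for 4 h in 100 nM CGRP or in vehicle. MHCII+ macrophages were then sorted into a CD11c- subset, called IAIE in the sample titles, and a CD11c+ subset, called CD11c. The 4 groups were thus IAIE control, IAIE CGRP, CD11c control and CD11c CGRP, each with 3 libraries. The sample titles call the control libraries Healthy, and vehicle as the control treatment is taken from the methods. The whole synovium was exposed, so the sorted cells were in contact with every other cell of the explant during treatment. The methods say that mice of both sexes were used. They give an age range for in vivo experiments and none for this explant assay, and do not say whether libraries of a group came from separate animals, so p-values measure only the spread between these libraries, which may be technical.

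CGRP, calcitonin gene-related peptide, is a neuropeptide released by pain-sensing nerve fibres, and its receptor (*Calcrl* with *Ramp1*) raises cyclic AMP in the cells that carry it. The 5 genes belong to unrelated families. *Selp* encodes P-selectin, an adhesion receptor best known from platelets and activated endothelium, where it lets leukocytes roll by binding PSGL-1. *Nup210* encodes a membrane-spanning protein that anchors the nuclear pore complex. *Bach2* encodes a transcriptional repressor that pairs with small MAF proteins and is best known for restraining plasma cell differentiation in B cells. *Irag2*, also named *Lrmp*, encodes a membrane protein of the endoplasmic reticulum that associates with inositol trisphosphate receptors and was first known from lymphoid cells. *Slc17a8* encodes VGLUT3, a transporter that loads glutamate into vesicles.

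The genes lie on 4 chromosomes of the mouse genome GRCm38 (mm10), and their models are those of GENCODE M21. *Selp* occupies chr1:164115264-164150026 on the plus strand and *Bach2* chr4:32238804-32586108 on the plus strand. *Irag2* lies at chr6:145115653-145174934 on the plus strand and *Nup210* at chr6:91013068-91116829 on the minus strand. *Slc17a8* spans chr10:89574020-89621253 on the minus strand. Exons of *Selp* overlap genes on the other strand over 14.1% of their length, those of *Bach2* over 5.4% (*Bach2os*) and those of *Irag2* over 4.0% (*Casc1* and *Gm43910*). The library kit keeps the strand, but the strand setting of the counting is not given in the sources used here, so reads of these partners could not be told apart. *Nup210* and *Slc17a8* shared no exon sequence with another gene.

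The 250 bases before the RefSeq start sites (GRCm38.p6) of the genes were searched for motifs of factors that act downstream of cyclic AMP or in macrophages. The genes were lower together in the CD11c subset by choice, which is no sign of shared control. Of the 5, 4 matched a promoter entry, all but *Irag2*. The motifs, read on both strands, were the cyclic AMP response element TGACGTCA, its shorter core TGACG (which the full element contains), the AP-1 site TGANTCA and the PU.1 core GAGGAAG. Among 32851 promoter windows of the same length they occurred in 1.546%, 17.765%, 6.749% and 10.612%. The single match among the 4 genes was an AP-1 site in *Selp* that began 139 bases before the start. *Nup210* stood apart by composition, with 71.2% G or C and 30 CpG pairs in its window, against a median of 52.4% G or C over all promoters. The windows of *Selp* and *Bach2* held 53.6% and 50.4%, *Slc17a8* has 2 RefSeq starts with windows at 57.2% and 44.8%, and the RefSeq start of *Bach2* used here (position 32417435) lies inside its GENCODE model. The windows of *Selp*, with its AP-1 letters in capitals, and of *Nup210*, the richest of the 4 in CpG, are shown from 5′ to 3′. The first is chr1:164115014-164115263 on the plus strand and the second chr6:91116827-91117076 on the minus strand.
Selp: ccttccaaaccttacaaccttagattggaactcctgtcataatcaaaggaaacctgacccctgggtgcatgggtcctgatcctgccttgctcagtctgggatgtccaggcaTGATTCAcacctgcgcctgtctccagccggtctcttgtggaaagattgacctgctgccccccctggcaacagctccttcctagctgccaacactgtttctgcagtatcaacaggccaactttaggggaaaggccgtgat
Nup210: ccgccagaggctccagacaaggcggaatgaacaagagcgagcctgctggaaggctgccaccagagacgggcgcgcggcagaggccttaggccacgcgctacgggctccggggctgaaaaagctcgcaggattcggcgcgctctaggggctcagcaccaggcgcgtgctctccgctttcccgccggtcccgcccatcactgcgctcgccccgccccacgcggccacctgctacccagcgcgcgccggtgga
The match describes letters in a window and is no evidence of binding.

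Library totals ranged from 2127191 to 5649698 counts. In the IAIE subset depth went with treatment, at 2127191 to 3310825 counts in control and 4009081 to 5364559 in CGRP libraries. The totals of the CD11c groups overlapped. Levels are given as CPM, the counts scaled to a common library size by TMM, and 3 counts, taken as the floor of detection, corresponded to between 0.534 and 1.34 CPM (counting error only). The sort was visible in *Itgax*, which encodes CD11c, at 237 ± 29.0 CPM in CD11c control and 6.19 ± 4.76 CPM in IAIE control libraries (SD, n = 3). The macrophage markers *Csf1r*, *Adgre1* and *Mertk* were present in both subsets. *Csf1r* averaged 1439 CPM in IAIE control and 595 CPM in CD11c control libraries. One CD11c control library, replicate 1, stood apart in endothelial genes and is given beside *Selp*. Tests were made in an edgeR quasi-likelihood fit to 11927 genes, every adjusted p is from it unless another tool is named, and a gene passed under 0.05.

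In the CD11c subset all 5 genes were between 5.10- and 9.30-fold lower with CGRP, which is how they were chosen. The IAIE subset shared the lower level for *Irag2* and *Nup210*, which fell there past the threshold. *Selp* and *Bach2* also had lower estimates that did not pass, and no difference in *Slc17a8* was detectable at its few counts. In bulk samples, fewer cells of a type and less RNA per cell cannot be told apart, and this holds for every value that follows.

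**Figure D1:**
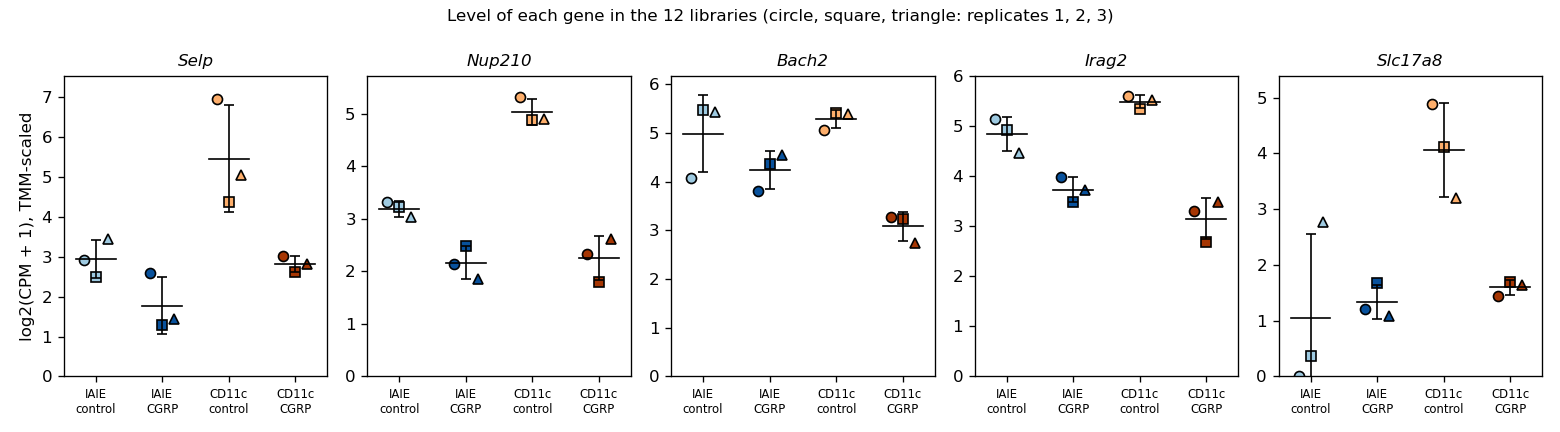
Level of each of the 5 genes in the 12 libraries, as log2(CPM + 1) with TMM scaling, by group (circle, square and triangle are replicates 1, 2 and 3, the line is the mean and the bar the SD over 3 libraries). Every CD11c CGRP library lies below every CD11c control library for each gene, and in the IAIE subset the groups separate for *Nup210* and *Irag2*.

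*Selp* was the gene whose CD11c control libraries differed most among themselves. It was at 123, 19.6 and 32.4 CPM in CD11c control replicates 1, 2 and 3, from 301, 84 and 151 counts. With CGRP the same subset held 7.10, 5.20 and 6.05 CPM. Replicate 1 of the control was thus far above the others, and even its lowest companion lay above every CGRP library. In the IAIE subset *Selp* was at 6.51, 4.59 and 9.85 CPM without CGRP and at 5.03, 1.46 and 1.70 CPM with it. These IAIE groups overlapped, because replicate 1 with CGRP exceeded replicate 2 of the control. The order of the group means was CD11c control (58.3 ± 56.2 CPM), IAIE control (6.98 ± 2.66), CD11c CGRP (6.11 ± 0.951) and IAIE CGRP (2.73 ± 2.00; SD, n = 3 each). The IAIE control and CD11c CGRP libraries overlapped and so did not differ beyond their spread.

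*Nup210* gave tighter replicates. Its CD11c control libraries were at 39.2, 28.5 and 29.0 CPM and its CD11c CGRP libraries at 4.03, 2.48 and 5.16 CPM. The IAIE control libraries held 8.996, 8.31 and 7.16 CPM and the IAIE CGRP libraries 3.44, 4.62 and 2.64 CPM. Both pairs of groups were separate, although the IAIE counts were small, with 13 to 19 per CGRP library. From high to low the means were CD11c control (32.2 ± 6.02 CPM), IAIE control (8.16 ± 0.927), CD11c CGRP (3.89 ± 1.35) and IAIE CGRP (3.57 ± 0.994; SD, n = 3 each). The last pair overlapped, so that with CGRP the level of *Nup210* no longer separated the subsets.

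*Bach2* differed from the other genes in that the subsets started at a similar level. It was at 32.6, 41.6 and 41.0 CPM in CD11c control and at 8.63, 8.42 and 5.69 CPM in CD11c CGRP libraries. The IAIE control libraries were at 15.8, 43.3 and 42.1 CPM, and the IAIE CGRP libraries at 12.97, 19.7 and 22.4 CPM. IAIE control replicate 1 lay well below its companions and within the range of the CGRP libraries, so these groups overlapped. The means were 38.4 ± 5.01 CPM in CD11c control, 33.7 ± 15.5 in IAIE control, 18.4 ± 4.87 in IAIE CGRP and 7.58 ± 1.64 in CD11c CGRP libraries (SD, n = 3 each). Only the lowest group was separate from its neighbour in this order.

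*Irag2* separated all 4 groups. The CD11c control libraries were at 47.7, 39.5 and 44.8 CPM and the CD11c CGRP libraries at 8.82, 5.45 and 10.1 CPM. In the IAIE subset the control libraries held 34.1, 29.5 and 21.04 CPM and the CGRP libraries 14.8, 10.2 and 12.3 CPM. The order was CD11c control (44.0 ± 4.17 CPM), IAIE control (28.2 ± 6.64), IAIE CGRP (12.4 ± 2.31) and CD11c CGRP (8.14 ± 2.42; SD, n = 3 each). The lower pair was barely separate, at 10.2 against 10.1 CPM for the nearest libraries.

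*Slc17a8* was the scarcest. It was at 28.6, 16.4 and 8.15 CPM in CD11c control libraries, from 70, 70 and 38 counts, and at 1.73, 2.23 and 2.14 CPM in CD11c CGRP libraries, from 9, 9 and 12 counts. IAIE control libraries gave 0, 1 and 13 counts, or 0, 0.287 and 5.82 CPM, and IAIE CGRP libraries 5, 9 and 6 counts, or 1.32, 2.19 and 1.13 CPM. More than 13 counts were seen in CD11c control libraries alone, and 2 of the 3 IAIE control libraries lay under the floor. The means were 17.7 ± 10.3 CPM in CD11c control, 2.04 ± 3.28 in IAIE control, 2.03 ± 0.267 in CD11c CGRP and 1.55 ± 0.562 in IAIE CGRP libraries (SD, n = 3 each), and the lower 3 groups overlapped.

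In the CD11c subset the fitted log2 differences, CGRP minus control, were -3.22 ± 0.55 for *Selp*, -3.09 ± 0.77 for *Slc17a8*, -3.02 ± 0.35 for *Nup210*, -2.41 ± 0.27 for *Irag2* and -2.35 ± 0.34 for *Bach2* (estimate ± SE). That all 5 had no overlap between groups follows from their choice, and 13.8% of all tested genes were likewise lower with no overlap. Without CD11c control replicate 1 the estimate of *Selp* was -2.08. Other genes lay close behind. Among 523 genes lower past the threshold with separate groups that averaged 5 CPM or more over the CD11c libraries, predicted genes left out, the next in order were *Abca6* (-2.28 ± 0.47), *Ocstamp* (-2.24 ± 0.59) and *Fry* (-2.18 ± 0.28). *Bach2*, the last of the 5, differed from *Abca6* by far less than either standard error.

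Whether the IAIE subset shared the lower levels was then tested. All 5 genes had a lower estimate with CGRP, a sign that most tested genes shared, since the median over all genes was -0.02. The sign of *Slc17a8* turned in 4 of 20 other fits, and it had no value in a fit of the IAIE libraries alone. Of the 5 genes 2 passed the threshold, against 3.89% of all tested genes that were called lower. *Irag2* fell by 1.19 ± 0.27 on the log2 scale, or 2.29-fold (adjusted p 0.00654). *Nup210* fell by 1.21 ± 0.37, or 2.31-fold (adjusted p 0.0445). They were also the 2 of 5 genes with every CGRP library below every control library, a pattern that 12% of all tested genes showed. The fall of *Irag2* passed in each of the 22 other fits, DESeq2 and limma-voom among them, with adjusted p from 4.62e-04 to 0.0464. That of *Nup210* sat at the threshold. It did not pass when only the compared libraries entered the fit (adjusted p 0.169), in limma-voom (adjusted p 0.147), with every gene of at least 1 count (adjusted p 0.130) or after thinning to the lowest library total (adjusted p 0.139). It also did not pass with a block for the replicate number (adjusted p 0.0565). Nor did it pass without any 1 of 11 libraries, that is each library but CD11c CGRP replicate 2, with adjusted p of up to 0.178.

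The other genes did not pass in the IAIE subset. *Selp* differed by -1.35 ± 0.65 (95% interval -2.72 to 0.01, adjusted p 0.235), although it passed with 1 surrogate variable (adjusted p 0.0219) and with every gene of at least 1 count (adjusted p 0.0333). *Bach2* differed by -0.86 ± 0.32 (95% interval -1.53 to -0.19, adjusted p 0.108). Its value moved either way with the library left out. Without IAIE control replicate 1, the low library, *Bach2* differed by -1.20 (adjusted p 0.00997). Without IAIE control replicate 2 or 3 it differed by -0.60 (adjusted p 0.380) or -0.66 (adjusted p 0.309). Without IAIE CGRP replicate 1 it differed by -0.66 (adjusted p 0.324). *Slc17a8* gave -0.20 ± 0.93 (95% interval -2.15 to 1.74, adjusted p 0.936). The interval covered falls and rises alike. Its sign turned without IAIE control replicate 3, which held 13 of the 14 control counts, to 3.15 (adjusted p 0.0916). Among all tested genes 3.61% had a lower estimate than *Selp*, 4.76% than *Nup210*, 4.90% than *Irag2*, 9.50% than *Bach2* and 36.6% than *Slc17a8*. The median of the 5 genes was -1.19, beside -0.02 over all genes.

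**Figure D2:**
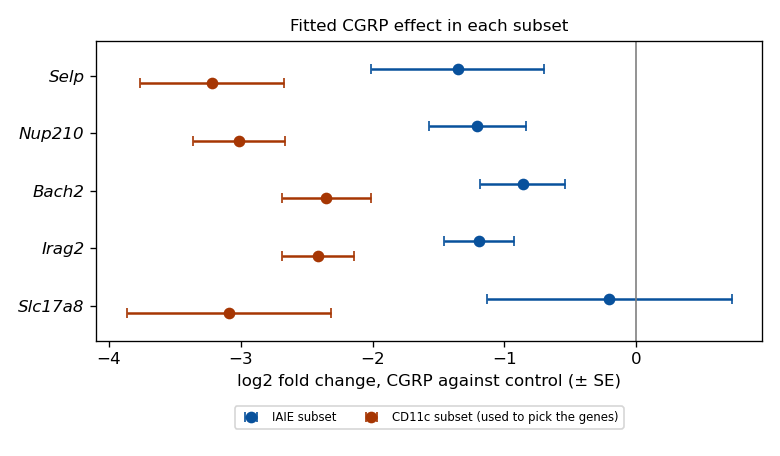
Fitted log2 fold change of each gene, CGRP against control, in the IAIE (blue) and CD11c (brown) subsets, with bars of ± SE. Estimates in the CD11c subset, on which the genes were picked, run from -3.22 to -2.35 and those in the IAIE subset from -1.35 to -0.20.

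The estimates were lower in the CD11c than in the IAIE subset for each gene. The CD11c effect minus the IAIE effect was -2.89 ± 1.20 for *Slc17a8*, -1.86 ± 0.85 for *Selp*, -1.81 ± 0.50 for *Nup210*, -1.49 ± 0.46 for *Bach2* and -1.22 ± 0.38 for *Irag2* on the log2 scale. No test belongs to these differences, since the CD11c effect in each was used for the choice. The differences between subsets within a treatment use the same CD11c levels and are likewise a description without a test. Without CGRP, CD11c minus IAIE was 3.28 ± 0.83 for *Slc17a8*, 3.07 ± 0.56 for *Selp*, 1.97 ± 0.34 for *Nup210*, 0.63 ± 0.26 for *Irag2* and 0.20 ± 0.31 for *Bach2*. With CGRP the same difference was 0.39 ± 0.84, 1.21 ± 0.63, 0.16 ± 0.37, -0.59 ± 0.28 and -1.29 ± 0.34 in that order.

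**Figure D3:**
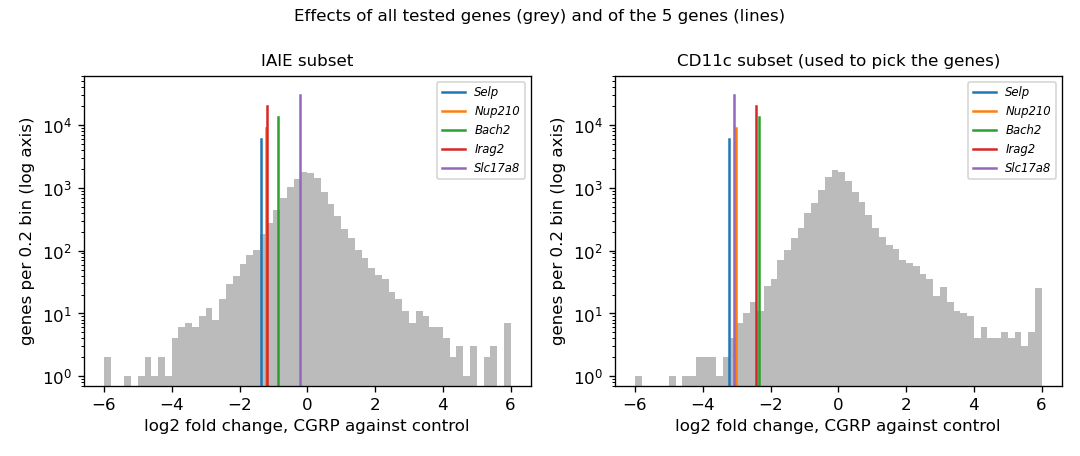
Number of genes (log axis) by log2 fold change, CGRP against control, in bins of 0.2 over 11927 tested genes, with values beyond ±6 placed in the outermost bins, and a coloured line for each of the 5 genes (line heights carry no value). In the CD11c subset the lines stand in the lower tail by choice, while in the IAIE subset they run from -1.35 (*Selp*) to -0.20 (*Slc17a8*).

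Levels of different genes can be compared only per length of exon. In CD11c control libraries *Selp*, at 13.2 ± 12.7 CPM per kb, and *Irag2*, at 10.8 ± 1.02, overlapped. The *Selp* mean rested on replicate 1, with 27.8 CPM per kb against 4.45 and 7.34 in the others, both below the lowest *Irag2* library (9.71 CPM per kb). *Bach2*, *Slc17a8* and *Nup210* followed close together at 3.86 ± 0.504, 3.75 ± 2.18 and 3.08 ± 0.575 CPM per kb (SD, n = 3 each). *Nup210* and *Bach2* have long summed exons of 10474 and 9940 bases against 4720 for *Slc17a8*, so their higher CPM did not mean a higher level per length. In CD11c CGRP libraries the level per kilobase was 2.00 for *Irag2*, 1.39 for *Selp*, 0.763 for *Bach2*, 0.430 for *Slc17a8* and 0.371 for *Nup210*, and *Nup210* then stood at percentile 6 of tested genes. Across the 12 libraries the log2 levels of *Nup210* and *Irag2* had the highest Pearson r of the 10 pairs (0.893), and *Selp* and *Nup210* reached 0.864. These correlations share the 4 groups, and after subtraction of group means they were 0.574 and 0.271, and over the IAIE libraries alone 0.044 and -0.257. *Bach2* and *Irag2* went from 0.771 to -0.626, so that within groups these libraries did not move together.

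The genes whose profile over the 12 libraries was most like each member were also listed, among the 8442 genes that averaged 5 CPM or more. *Fxyd5* (r = 0.976), *Ak8* (0.960) and *Crip1* (0.946) were nearest to *Selp*. *Qpct* (0.966), *Anxa1* (0.964) and *Colgalt1* (0.961) were nearest to *Nup210*. *Bach2* was most like *Fuca2* (0.923), *Cd44* (0.916) and *Bcl2l11* (0.913). For *Irag2* they were *Smc1a* (0.952), *Mbnl1* (0.951) and *Hpcal1* (0.947), and for *Slc17a8* *Taf2* (0.940), *Plxna1* (0.918) and *Adgra2* (0.917). All are Pearson's r over 12 libraries that fall into 4 groups, and they describe the order of group levels more than the libraries within them.

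Because *Selp* is an endothelial and platelet gene, markers of those cells were set beside it. CD11c control replicate 1, the library with 123 CPM of *Selp*, also held 60.0 CPM of *Vwf*, 45.7 of *Cdh5*, 42.8 of *Plvap* and 14.3 of *Sele*. The remaining CD11c control libraries held 3.97 and 7.29 CPM of *Vwf*, 0.234 and 2.79 of *Cdh5*, 1.40 and 3.004 of *Sele* and no count of *Plvap*, with 19.6 and 32.4 CPM of *Selp*. Endothelial markers were thus high together with *Selp* in one library and lower in the others, which still carried *Selp*. *Pecam1* was at 28.6, 13.3 and 8.15 CPM in CD11c control replicates 1, 2 and 3. In CD11c CGRP libraries *Cdh5* was at 36.2, 0.743 and 40.6 CPM and *Pecam1* at 34.3, 7.18 and 41.6 CPM. There *Vwf* was at 5.56, 8.66 and 11.4 CPM, *Plvap* at 1.53, 0.743 and 1.07 CPM and *Selp* between 5.20 and 7.10 CPM. *Sele* was at 0.959, 1.24 and 0.356 CPM, from 5, 5 and 2 counts. Like *Selp*, it was lower in every CGRP than in every control library of this subset (-2.81 ± 0.96, adjusted p 0.0697). Summed over the 12 endothelial markers, the level was 208, 23.6 and 28.1 CPM in CD11c control libraries (highest, lowest and median) and 37.9 to 131 CPM with CGRP. In the IAIE subset the sum was 18.6 to 26.1 CPM without and 33.0 to 48.6 CPM with CGRP, without overlap. Of 9 endothelial markers tested, *Esam* rose in both subsets (2.61, adjusted p 0.0324, and 3.56, adjusted p 0.00197) and the others did not pass. Over all tested genes 5.32% were called higher in IAIE and 6.29% in CD11c cells. The part of endothelial cells in the *Selp* levels was not tested.

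**Figure D4:**
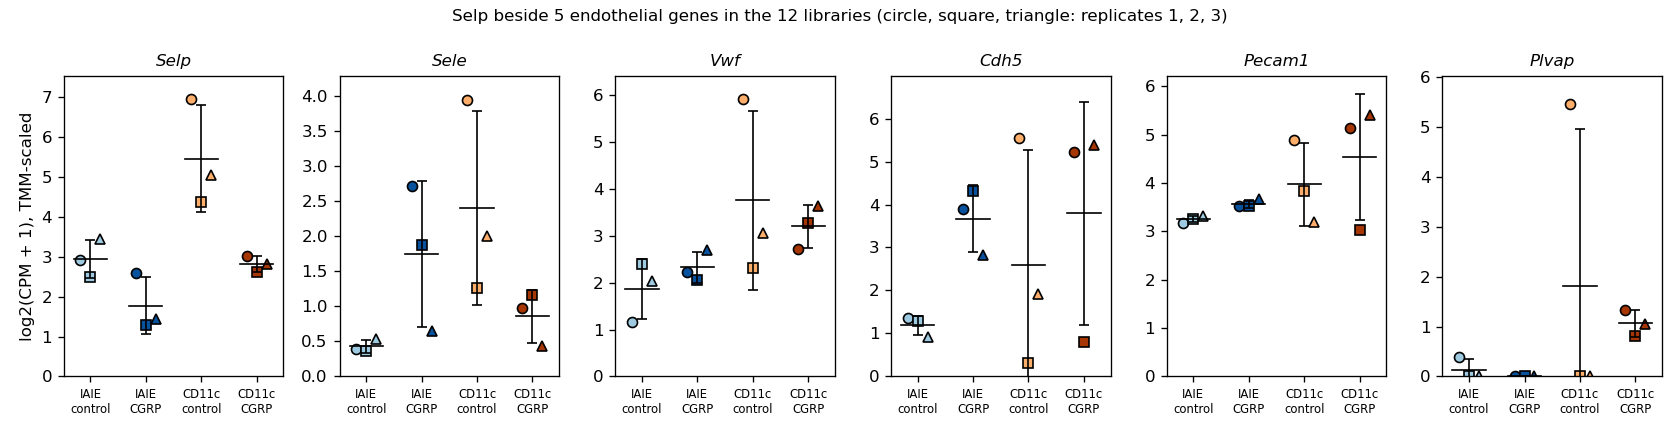
*Selp* and 5 endothelial genes in the 12 libraries, as log2(CPM + 1) with TMM scaling, with replicates 1, 2 and 3 as circle, square and triangle, the mean as a line and the SD as a bar. CD11c control replicate 1 is high for *Selp* (123 CPM), *Vwf* (60.0 CPM) and *Plvap* (42.8 CPM), whereas the other CD11c control libraries carry *Selp* with no count of *Plvap*.

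Of 4 platelet markers tested, *Pf4* and *Ppbp* rose with CGRP in both subsets. Over all tested genes 5.32% were called higher in IAIE and 6.29% in CD11c cells. *Ppbp*, a platelet chemokine gene, was at 4.54 ± 2.16 CPM without and 38.4 ± 6.85 CPM with CGRP in the IAIE subset (3.02, adjusted p 3.13e-04). CD11c libraries gave 5.87 ± 4.57 and 58.6 ± 8.33 CPM (3.35, adjusted p 4.13e-05; SD, n = 3). *Itga2b*, the defining integrin of platelets, averaged between 0.881 and 4.23 CPM and did not pass. *Pf4* was far above it, at 334 ± 69.5 CPM in IAIE control libraries. The part of platelets in the *Selp* levels was not tested.

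The selectin and adhesion list held 19 tested genes besides *Selp*. In the IAIE subset 4 fell and none rose, where 3.89% of all tested genes were called lower and 5.32% higher (9.21% in all). In the CD11c subset 5 fell and none rose, where 4.59% were called lower and 6.29% higher (10.9% in all). *Selplg*, which encodes the P-selectin ligand PSGL-1, fell in IAIE cells from 148 ± 16.3 to 80.7 ± 7.36 CPM (-0.88 ± 0.15, adjusted p 6.41e-04) and was at -0.34 ± 0.14 in CD11c cells (adjusted p 0.152). The integrin gene *Itga4* fell in both (-1.01 ± 0.20, adjusted p 0.00288, and -0.74 ± 0.20, adjusted p 0.0175), as did *Itgal* (-1.35 ± 0.37, adjusted p 0.0247, and -1.59 ± 0.33, adjusted p 0.00305). *Icam1* fell in IAIE cells (-0.77 ± 0.18, adjusted p 0.0107). *Cd44*, the hyaluronan receptor, fell in CD11c cells from 1850 ± 266 to 919 ± 17.8 CPM (-1.01 ± 0.12, adjusted p 1.31e-05), and so did *St3gal4*, which adds sialic acid to selectin ligands (-1.34 ± 0.27, adjusted p 0.00212). The list median was -0.10 in IAIE and -0.41 in CD11c cells, beside -0.02 and 0.00 over all genes.

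The nuclear pore genes were near the median of all genes. Of 28 tested genes of the nuclear pore besides *Nup210*, none passed in the IAIE subset and 1 fell in the CD11c subset, *Nup155*, a scaffold nucleoporin (19.9 ± 8.56 to 9.63 ± 1.38 CPM, -1.02 ± 0.32, adjusted p 0.0489). Over all tested genes 9.21% passed in IAIE and 10.9% in CD11c cells. The list median was -0.06 in both subsets, and the summed level overlapped between treatments, at 2087 to 2237 CPM without and 2087 to 2375 CPM with CGRP in IAIE libraries.

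The BACH list combined *Bach1*, the small MAF genes, the activator NRF2 (*Nfe2l2*) and targets for which BACH1 and NRF2 compete. Of 20 tested genes, 6 rose and 3 fell in the IAIE subset and 5 rose and 5 fell in the CD11c subset, with medians of -0.17 and 0.02 (background 5.32% higher and 3.89% lower in IAIE, 6.29% and 4.59% in CD11c). The 4 genes that rose in both were *Hmox1*, *Nqo1*, *Gclm* and *Slc7a11*. *Nfe2l2* itself fell in IAIE cells (-0.55 ± 0.12, adjusted p 0.00710), and *Txnrd1*, *Srxn1* and *Gclc*, further targets of NRF2, did not pass in either subset. *Hmox1*, which encodes haem oxygenase 1, rose by 0.67 ± 0.11 in IAIE (adjusted p 6.97e-04) and by 0.43 ± 0.11 in CD11c cells (adjusted p 0.0167). *Slc7a11*, the cystine transporter gene, rose in IAIE cells from 351 ± 69.5 to 760 ± 176 CPM (1.12 ± 0.18, adjusted p 5.12e-04), and *Gclm*, of glutathione synthesis, rose by 0.94 ± 0.17 (adjusted p 9.21e-04). *Nqo1* rose in CD11c cells from 9.67 ± 3.70 to 54.5 ± 18.4 CPM (2.48 ± 0.42, adjusted p 5.40e-04). *Bach1*, the relative of *Bach2*, fell in CD11c cells from 963 ± 116 to 523 ± 28.9 CPM (-0.88 ± 0.14, adjusted p 3.23e-04) and was at -0.45 ± 0.14 in IAIE cells (adjusted p 0.0552). *Irf4*, a transcription factor of plasma cells and dendritic cells, fell in both (-0.81 ± 0.16, adjusted p 0.00200, and -1.12 ± 0.15, adjusted p 4.92e-05).

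Genes of inositol trisphosphate receptors and calcium stores, the setting of *Irag2*, fell where they passed. None of 19 tested genes rose, 4 fell in the IAIE subset and 8 in the CD11c subset, with list medians of -0.17 and -0.10, where 3.89% and 4.59% of all tested genes were called lower. *Itpr1*, which encodes the type 1 receptor, fell in the IAIE subset from 27.5 ± 6.29 to 13.3 ± 4.88 CPM (-1.04 ± 0.26, adjusted p 0.0135). Its level in the CD11c subset fell from 100.2 ± 17.1 to 25.3 ± 3.71 CPM (-1.99 ± 0.24, adjusted p 1.38e-05). *Plcg2*, a phospholipase that makes inositol trisphosphate, fell in both (-0.68 ± 0.14, adjusted p 0.00343, and -0.74 ± 0.14, adjusted p 0.00127). *Atp2a3*, a pump that refills the stores, also fell in both (-1.18 ± 0.29, adjusted p 0.0117, and -1.39 ± 0.27, adjusted p 0.00183). *Itpr1*, *Plcg2* and *Atp2a3* were named for the smallest p in the list, and *Irag2* was chosen for its CD11c level. That they were lower together is therefore a description.

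For *Slc17a8*, 11 of 23 genes of vesicular transport and glutamate handling could be tested, of which 3 fell and 1 rose in IAIE cells and 3 fell in CD11c cells (3.89% and 4.59% of all tested genes fell). The vesicular glutamate transporters *Slc17a6* and *Slc17a7* had at most 4 counts in any library and were not tested. Among the tested genes *Slc1a5*, a glutamine transporter, differed by -1.15 ± 0.19 in IAIE cells (adjusted p 6.66e-04) and by -0.81 ± 0.20 in the CD11c subset (adjusted p 0.00952), a fall in both. *Glud1*, an enzyme of glutamate metabolism, fell in both as well (-0.62 ± 0.12, adjusted p 0.00178, and -0.57 ± 0.12, adjusted p 0.00265). A single gene, *Slc3a2*, an amino acid transporter subunit, rose, in IAIE cells (0.60 ± 0.13, adjusted p 0.00497). Of the neuron and Schwann cell markers, *Rbfox3* and *Snap25* were too low to be tested, *Tubb3* averaged 0.786 to 6.43 CPM, and *S100b* rose in CD11c cells (3.31, adjusted p 0.00610).

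*Bach2* and *Irag2* are also genes of B cells, and the summed level of B cell markers was lower with CGRP in both subsets without overlap. Summed over 13 markers, the level was 208 to 348 CPM in IAIE control and 105 to 164 CPM in IAIE CGRP libraries, and 47.6 to 70.8 CPM in CD11c control and 16.2 to 29.7 CPM in CD11c CGRP libraries. Of the 13, *Ighm* fell in IAIE cells (-0.82 ± 0.23, adjusted p 0.0302), and *Ighm* (-2.02 ± 0.28, adjusted p 5.72e-05) and *Pou2af1* (no count in any CGRP library, adjusted p 0.00242) fell in CD11c cells, with list medians of -0.83 and -1.86. In all, 1 fell in IAIE and 3 in CD11c cells, and none rose. Of all tested genes 3.89% and 4.59% were called lower, and 12% and 13.8% were lower without overlap. *Ighm* was the largest part of the sum in IAIE libraries, at 130 ± 31.8 CPM without and 73.2 ± 16.9 CPM with CGRP. *Ighd* and *Fcrla* had higher estimates in IAIE cells (0.72 ± 0.79 and 0.03 ± 0.67) that did not pass. *Ms4a1* and *Cd79a* did not pass in either subset. IAIE control libraries held more of the B cell sum than CD11c control libraries without overlap. *Bach2* stood at similar levels in both control groups and *Irag2* was lower in IAIE control. Within the IAIE control group, replicate 1 was lowest in *Bach2* (15.8 CPM) and in the B cell sum (208 CPM), and highest in *Irag2* (34.1 CPM). The part of B cells in these values was not tested.

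**Figure D5:**
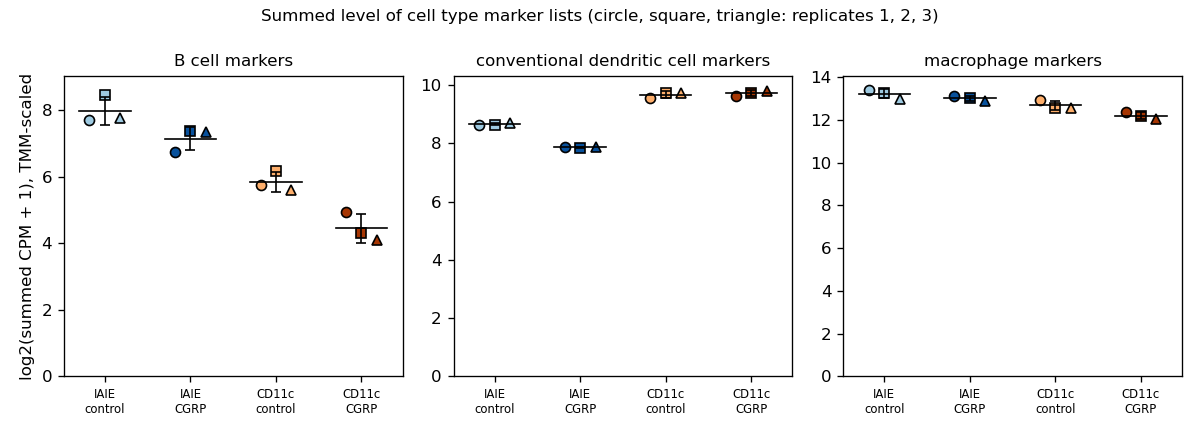
Summed level of the B cell, conventional dendritic cell and macrophage markers in the 12 libraries, as log2(summed CPM + 1) with TMM scaling, with symbols, lines and bars as in the plots of single genes. The B cell sum is 208 to 348 CPM in IAIE control and 16.2 to 29.7 CPM in CD11c CGRP libraries, and the dendritic cell sum is highest in the CD11c subset.

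Among 11 conventional dendritic cell markers tested, *Flt3*, *Irf8* and *Clec10a* fell in the IAIE subset, while in the CD11c subset *Flt3*, *Cd209a* and *Dpp4* fell and *Ccr7* rose. Over all tested genes 3.89% were called lower and 5.32% higher in IAIE cells, and 4.59% lower and 6.29% higher in CD11c cells. *Flt3*, a growth factor receptor of dendritic cells, was at 18.6 ± 1.96 CPM without and 4.46 ± 2.91 CPM with CGRP in the CD11c subset (-2.03, adjusted p 0.0169). IAIE libraries gave 9.22 ± 5.09 and 2.03 ± 1.28 CPM (-2.20, adjusted p 0.0241; SD, n = 3). *Zbtb46* and *Xcr1* did not pass. The summed level of the dendritic cell list was lower with CGRP in IAIE libraries (396 to 414 against 228 to 234 CPM) and overlapped between treatments in CD11c libraries (744 to 855 and 784 to 895 CPM). The CD11c sum joined opposite changes and does not show steady markers. In it *Ccr7* rose from 240 ± 33.4 to 576 ± 53.9 CPM, and *Cd209a* fell from 297 ± 7.06 to 79.3 ± 9.84 CPM. Of 10 macrophage markers *Fcgr1* rose in both subsets (1.38, adjusted p 6.97e-04, and 1.78, adjusted p 5.96e-05) and *Lyz2* fell in CD11c cells (-0.70, adjusted p 0.00306). The macrophage sum overlapped between treatments in the IAIE subset (8084 to 10878 CPM without and 7428 to 8918 CPM with CGRP), and in the CD11c subset it was lower with CGRP without overlap (6029 to 7801 against 4193 to 5279 CPM). Among plasmacytoid dendritic cell markers *Bst2* rose in both (1.55, adjusted p 4.22e-04, and 1.90, adjusted p 4.38e-05), and *Siglech* did not pass. No tested marker of mast cells passed, and of the neutrophil markers *Csf3r* fell in CD11c cells (-0.71, adjusted p 0.0359). Of 7 fibroblast markers tested, 3 fell and 1 rose in IAIE cells and 3 rose in CD11c cells (background 3.89% lower and 5.32% higher in IAIE, 6.29% higher in CD11c). The falls, in the collagen genes *Col1a1*, *Col1a2* and *Col3a1*, rested on IAIE control replicate 2, which held 2337 counts of *Col1a1* against 113 and 205 in the other controls. Without that library, a check chosen after seeing the data, 0 of the 7 fell and *Col1a1* was at -0.93 (adjusted p 0.406) instead of -3.05 (adjusted p 0.0147). *Dcn* rose in CD11c cells (4.88, adjusted p 5.77e-04) and *Pdpn* rose in both (1.72, adjusted p 1.21e-06, and 0.88, adjusted p 5.62e-04). *Cd3d* had at most 3 counts in any library. The part of these cells in the levels of the 5 genes was not tested.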

How the data were processed

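Synovial MHCII+ macrophages of 4 groups (2 subsets, CGRP or control, 3 libraries each) were sequenced with a stranded total RNA kit. According to the study's methods and the submitters' processing notes, the authors trimmed reads with Trim Galore, aligned them to mm10 with HISAT2 and counted them with featureCounts. Versions, annotation and strand setting are not given in the sources used here. The deposited values are raw counts per gene symbol, not normalised. The combined table holds the same counts for the 12 libraries, and 6 more of its columns match no sample label and were left out.

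Low genes were removed with filterByExpr, with groups given, a minimum count of 10 and a minimum total of 15. The 11927 genes left were scaled by TMM. One edgeR 4.0.16 quasi-likelihood fit (R 4.3.3) held a mean per group. Calls are at a Benjamini-Hochberg adjusted p under 0.05 over all tested genes, and adjusted p-values are from edgeR unless another tool is named. Intervals are 95% from the fit. The biological coefficient of variation was 0.256. The code was tested on simulated data. Correlations used log2 CPM with a prior count of 2.

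Alternatives were upper-quartile or RLE scaling, no filter beyond 1 count, a minimum of 10 counts per library, a replicate block, only the compared libraries, 1 surrogate variable (sva 3.50.0), DESeq2 1.42.0, limma-voom (limma 3.58.1), thinning to the lowest library total, and each library left out in turn. The study's own methods used DESeq2 and sva.

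Gene models are GENCODE M21 (lengths for 97.8% of tested genes) and promoters RefSeq on GRCm38.p6. Text names the 5 genes, the 3 next lower genes, the 3 most alike per gene, up to 3 genes past the threshold per list and subset with the smallest p, and the first 3 markers of each cell list. Other genes named (*Slc17a6*, *Slc17a7*, *Slc3a2*, *Nfe2l2*, *Txnrd1*, *Srxn1*, *Gclc*, *Ighd*, *Fcrla*, *Itgax* and the endothelial genes beside *Selp*) were chosen after their values were seen. Some genes that the rule picks are not reported here. The 5 genes and all lists were chosen with earlier results of these data known, so counts over them are descriptions.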

Additional observations from a re-analysis of the deposited data

How the results depend on the processing

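Over 22 alternatives, the genes past the threshold numbered from 722 to 1338 in the IAIE subset (1099 as reported) and from 929 to 1545 in the CD11c subset (1298). With 1 library left out they numbered 722 to 1122 and 929 to 1377, and the lowest IAIE count came without IAIE CGRP replicate 2. Fits with a library left out tested more genes, because the filter then asks for fewer libraries. The fall of *Irag2* in the IAIE subset passed in all 22 alternatives, between -1.33 and -1.03 with a library left out. *Nup210* no longer passed with every gene of at least 1 count (-1.13, adjusted p 0.130), with only the compared libraries (-1.20, adjusted p 0.169), in limma-voom (-1.18, adjusted p 0.147) and after thinning (-1.12, adjusted p 0.139). With a library left out it lay between -1.43 and -1.01, and its call was kept without CD11c CGRP replicate 2 alone. The number of the 5 genes past the threshold was 1 in limma-voom, after thinning and in 10 of 12 fits with a library left out (range 1 to 2). *Selp* passed with every gene of at least 1 count (-1.28, adjusted p 0.0333) and with 1 surrogate variable (-1.43, adjusted p 0.0219), and lay between -2.07 and -1.03 with a library left out. *Bach2* lay between -1.20 and -0.60 and passed without IAIE control replicate 1. *Slc17a8* changed sign in limma-voom (1.03, adjusted p 0.742), after thinning (0.12, adjusted p 0.968), without IAIE control replicate 3 (3.15) and without IAIE CGRP replicate 3 (0.0051), the lowest value being -0.84. The causes of these changes were not tested. A minimum of 10 counts per library left no value for *Selp*, *Slc17a8* or the number of the 5 genes past the threshold, and *Slc17a8* had none with only the compared libraries. In the CD11c subset, where no test applies, thinning gave -2.90 for *Irag2* and -5.07 for *Slc17a8*.

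The labels do not say that replicate numbers mark a shared explant or day. Over 7161 genes, the deviations of same-numbered IAIE control and CGRP libraries from their means had correlations of 0.020, 0.0034 and -0.017. Those of CD11c control and CGRP libraries were 0.158, 0.131 and 0.0084, those of the control libraries of the 2 subsets 0.013, 0.044 and -0.013, and those of their CGRP libraries 0.287, 0.083 and 0.114. No comparison had every correlation over 0.1, so the numbers were not taken to pair the libraries. With the replicate block *Nup210* was at -1.20 (adjusted p 0.0565), the number of the 5 genes past the threshold was 1, and no other call of a member in the IAIE subset changed.

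Depth limits *Slc17a8* most, with 14 control counts over 3 IAIE libraries, and *Selp*, with 6 to 22 counts per IAIE library.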
